A study of Mus musculus with 4 samples.

Results

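The 10 genes described here belong to BMP, activin and TGF-beta signalling and were read in single endothelial cells of the mouse lung. They were picked by symbol: the ligand genes Bmp4, Bmp6, Inhba, Inhbb and Tgfb1, the receptor genes Acvrl1, Eng and Bmpr2, and the pathway's own target genes Smad6 and Id1. All 10 were found among the 32285 genes of the matrices, and every one has a value below. The study made 4 single-cell RNA libraries from lung cells cleared of CD45-positive cells and then selected on CD31, a surface protein of endothelium. The libraries M3cKO PNX and Foxo1cKO PNX came from mice with the conditional knockouts M3cKO and Foxo1cKO, and the library WT PNX from wild-type mice, all 3 collected at day 7 after PNX. The fourth library, sham, came from wild-type mice after a sham operation. PNX commonly stands for pneumonectomy, in which lung tissue is cut out. The labels do not say what M3 stands for, which driver deletes either gene, how many animals went into a library and how old they were. With 1 library per group there was no spread between animals and no test, and every interval below is a 95% interval for counting error only.

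Ligands of this superfamily bind complexes of type I and type II receptors, which phosphorylate SMAD proteins that then enter the nucleus. In endothelium the type I receptor ALK1, encoded by Acvrl1, works with the type II receptor BMPR2 and the co-receptor endoglin, encoded by Eng. Loss of ALK1 or endoglin causes hereditary haemorrhagic telangiectasia in humans, and loss of BMPR2 function underlies heritable pulmonary arterial hypertension. ID1 is a direct transcriptional target of BMP signalling, and SMAD6 is a target that feeds back to inhibit it.

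Cells were counted as endothelial with at least 500 genes, at most 10% mitochondrial UMIs (unique molecular identifiers, which tag single transcript molecules), at least 2 UMIs over Pecam1, Cdh5, Cldn5, Egfl7, Ramp2 and Tie1, and 0 of Ptprc, Epcam, Col1a1 and Col1a2. This left 2491 cells with 6492399 UMIs in M3cKO PNX, 3811 with 12346381 in Foxo1cKO PNX, 3887 with 13691550 in WT PNX and 4665 with 10493693 in sham. The 6 panel genes summed to 10734 to 12975 CPM (UMIs of a gene per 1000000 UMIs of the summed cells) in the 4 libraries. Foxo1, the named target of the Foxo1cKO mice, was at 185 CPM in M3cKO PNX, 70.1 in Foxo1cKO PNX, 208 in WT PNX and 196 in sham, so the Foxo1cKO PNX library stood 2.97-fold below WT PNX (interval 2.75 to 3.20). The libraries differed in sex make-up: Xist, the transcript of the inactive X chromosome, had 0 UMIs in M3cKO PNX, 1902 in Foxo1cKO PNX, 1812 in WT PNX and 0 in sham. Counts of 0 allow up to 0.462 CPM in M3cKO PNX and 0.286 in sham, taking 3 UMIs as the limit. Clusters led by blood, platelet, epithelial or fibroblast genes still held 5.86%, 5.75%, 7.18% and 3.11% of the endothelial cells of M3cKO PNX, Foxo1cKO PNX, WT PNX and sham. Summed fibroblast markers were at 10.2, 117, 85.9 and 32.3 CPM in the same order of libraries, and platelet markers at 433, 372, 439 and 38.9 CPM. Any 2 libraries shared 68 to 111 cell barcodes.

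The RefSeq promoter table (build GRCm38.p6, from 250 bases before to 50 after the start it uses for each gene) held 8 of the 10 genes. For Bmpr2 that start differs from the gene span given below, which begins at 59763400, so the printed Bmpr2 window lies inside that span. Acvrl1 and Id1 were not among them. Printed here are the promoters of Bmp4, Inhbb and Bmpr2, the genes that stood furthest apart between M3cKO PNX and WT PNX, and of Smad6, the inhibitory target, each 5′ to 3′ on the gene's own strand. The letters searched on both strands were GTCTAGAC, the palindromic Smad binding element, GGCGCC, a GC-rich motif of the BMP-activated SMADs, GTAAACA, the core of the FOXO site, and CACGTG, the E-box read by basic helix-loop-helix factors. Capitals mark the matches, and no match overlapped another.
Bmp4, chr14:46390620-46390919, minus strand: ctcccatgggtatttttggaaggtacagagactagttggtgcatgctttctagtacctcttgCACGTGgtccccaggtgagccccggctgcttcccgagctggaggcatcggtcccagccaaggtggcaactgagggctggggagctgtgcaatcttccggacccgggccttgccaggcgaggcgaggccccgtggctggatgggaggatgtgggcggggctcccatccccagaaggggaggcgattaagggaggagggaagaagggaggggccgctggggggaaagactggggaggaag
Inhbb, chr1:119422199-119422498, minus strand: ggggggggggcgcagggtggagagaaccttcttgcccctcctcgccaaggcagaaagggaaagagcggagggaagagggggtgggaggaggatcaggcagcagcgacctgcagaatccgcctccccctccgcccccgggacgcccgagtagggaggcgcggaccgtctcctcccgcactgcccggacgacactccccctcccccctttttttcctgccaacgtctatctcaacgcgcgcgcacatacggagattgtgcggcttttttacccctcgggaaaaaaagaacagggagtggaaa
Bmpr2, chr1:59764029-59764328, plus strand: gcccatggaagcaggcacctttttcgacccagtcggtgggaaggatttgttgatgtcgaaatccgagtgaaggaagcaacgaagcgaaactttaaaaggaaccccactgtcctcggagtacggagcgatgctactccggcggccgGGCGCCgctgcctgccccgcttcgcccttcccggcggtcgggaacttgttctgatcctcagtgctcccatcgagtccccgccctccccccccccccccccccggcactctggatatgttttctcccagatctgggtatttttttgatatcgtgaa
Smad6, chr9:64022010-64022309, minus strand: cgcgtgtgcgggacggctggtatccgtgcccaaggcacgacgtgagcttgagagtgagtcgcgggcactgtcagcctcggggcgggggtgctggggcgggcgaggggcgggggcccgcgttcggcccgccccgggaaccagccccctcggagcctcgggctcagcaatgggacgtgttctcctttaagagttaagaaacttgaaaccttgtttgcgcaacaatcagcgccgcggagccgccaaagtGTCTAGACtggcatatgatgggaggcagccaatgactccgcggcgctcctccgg

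The Smad binding element stood in the Smad6 promoter alone among the 8, and in 0.213% of the 32851 promoters of the table. Its first base lay 4 bases before the annotated start of Smad6. The GGCGCC letters stood in the Bmpr2 window alone among the 8 and in 11.9% of all promoters, so they are common. CACGTG was found in the Bmp4 and Bmp6 promoters and in 7.15% of all. GTAAACA was in none of the 8 windows and in 3.65% of all, and the printed Inhbb window held none of these 4 motifs. A match describes letters only, since binding was not measured.

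Bmp4 and Bmp6 encode secreted BMP ligands, and they stood apart in opposite directions between WT PNX and sham. Bmp4 (chromosome 14, 46383520 to 46390669 on GRCm38, minus strand) was at 55.0 CPM in M3cKO PNX (interval 49.4 to 61.0), 214 in Foxo1cKO PNX (206 to 222), 184 in WT PNX (177 to 192) and 93.6 in sham (87.8 to 99.6). No 2 of these intervals overlapped: M3cKO PNX was lowest, sham next, and the other two PNX libraries highest. The ratio was 0.298 for M3cKO PNX over WT PNX (0.266 to 0.334), which is 3.35-fold lower, 1.16 for Foxo1cKO PNX over WT PNX (1.10 to 1.22) and 1.97 for WT PNX over sham (1.83 to 2.12). Thinning to 2000 UMIs used only cells at least that deep. It left out 1197, 1275, 1147 and 2654 cells of M3cKO PNX, Foxo1cKO PNX, WT PNX and sham. Of the thinned cells 7.03%, 22.0%, 19.2% and 11.3% had a Bmp4 UMI, in the same order of libraries. Over all cells without thinning the shares were 8.07%, 26.3%, 25.7% and 12.1%. Both sets of shares had the order of the levels. Among cells of M3cKO PNX with leukocyte genes, which should lack Bmp4, 0.303% had a UMI, with a median depth of 2424 UMIs against 2070.0 in the endothelial cells.

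Bmp6 (chromosome 13, 38345107 to 38500302, plus strand) encodes a ligand best known from liver endothelium, where it induces hepcidin in hepatocytes in response to iron. Its level was 319 CPM in M3cKO PNX (305 to 333), 436 in Foxo1cKO PNX (424 to 447), 445 in WT PNX (433 to 456) and 773 in sham (756 to 789.7). All PNX libraries lay below sham, the Foxo1cKO PNX and WT PNX intervals overlapped, and M3cKO PNX was lowest. Bmp6 was 1.74-fold lower in WT PNX than in sham (1.68 to 1.80). Between M3cKO PNX and WT PNX it was 1.40-fold lower (1.33 to 1.47), which is under the 1.5-fold that counts here as a call. Against sham, the M3cKO PNX library was 2.43-fold lower (2.31 to 2.55).

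Inhbb (chromosome 1, 119415465 to 119422248, minus strand) encodes the beta B subunit of activin and inhibin. It was at 61.8 CPM in M3cKO PNX (55.9 to 68.1), 9.96 in Foxo1cKO PNX (8.28 to 11.9), 12.2 in WT PNX (10.4 to 14.2) and 18.4 in sham (15.9 to 21.2). The M3cKO PNX library stood alone at the top, sham was next, and the intervals of the other two overlapped. In M3cKO PNX Inhbb stood 5.06-fold above WT PNX (4.22 to 6.10) and 3.36-fold above sham (2.82 to 4.01). Of the cells thinned to 2000 UMIs, 7.34%, 1.14%, 1.93% and 1.99% had an Inhbb UMI in M3cKO PNX, Foxo1cKO PNX, WT PNX and sham. Over all cells without thinning M3cKO PNX had 9.15%, WT PNX 3.04% and sham 2.81%. Leukocyte-gated cells, described below, had one in 0.0361%. The cell richest in Inhbb held 10.5% of its UMIs in M3cKO PNX, and the level without that cell was 55.3 CPM. In WT PNX it was 1.51-fold lower than in sham, with an interval of 1.22 to 1.87 that lies on both sides of the 1.5-fold rule.

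Inhba (chromosome 13, 16011851 to 16031621, plus strand), the beta A subunit of activin, had 5 UMIs in M3cKO PNX, 168 in Foxo1cKO PNX, 16 in WT PNX and 7 in sham, which is 0.770, 13.6, 1.17 and 0.667 CPM. Of the Foxo1cKO PNX UMIs 122, or 72.6%, came from 1 arterial-like cell. Without that cell the level was 3.73 CPM, against 0.949 in WT PNX without its own richest cell. The 11.6-fold ratio of Foxo1cKO PNX over WT PNX (6.96 to 20.8) is therefore mostly that cell's content, and its interval, which treats UMIs as independent, is too narrow.

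Tgfb1 (chromosome 7, 25687002 to 25705077, plus strand), the main TGF-beta ligand gene, had 130, 182, 229 and 150 UMIs in M3cKO PNX, Foxo1cKO PNX, WT PNX and sham. Its ratio was 1.20 for M3cKO PNX over WT PNX (0.958 to 1.49), 0.881 for Foxo1cKO PNX over WT PNX (0.721 to 1.08) and 1.17 for WT PNX over sham (0.948 to 1.45). All 3 intervals held 1, so a difference was not detectable at this depth. In cells gated as leukocytes (at least 1 Ptprc UMI and 0 of the endothelial panel) Tgfb1 was at 23.2 CPM over all libraries (19.9 to 26.8), and endothelial cells had 16.7 CPM in WT PNX (14.6 to 19.0) and 14.3 in sham (12.1 to 16.8).

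**Figure D1:**
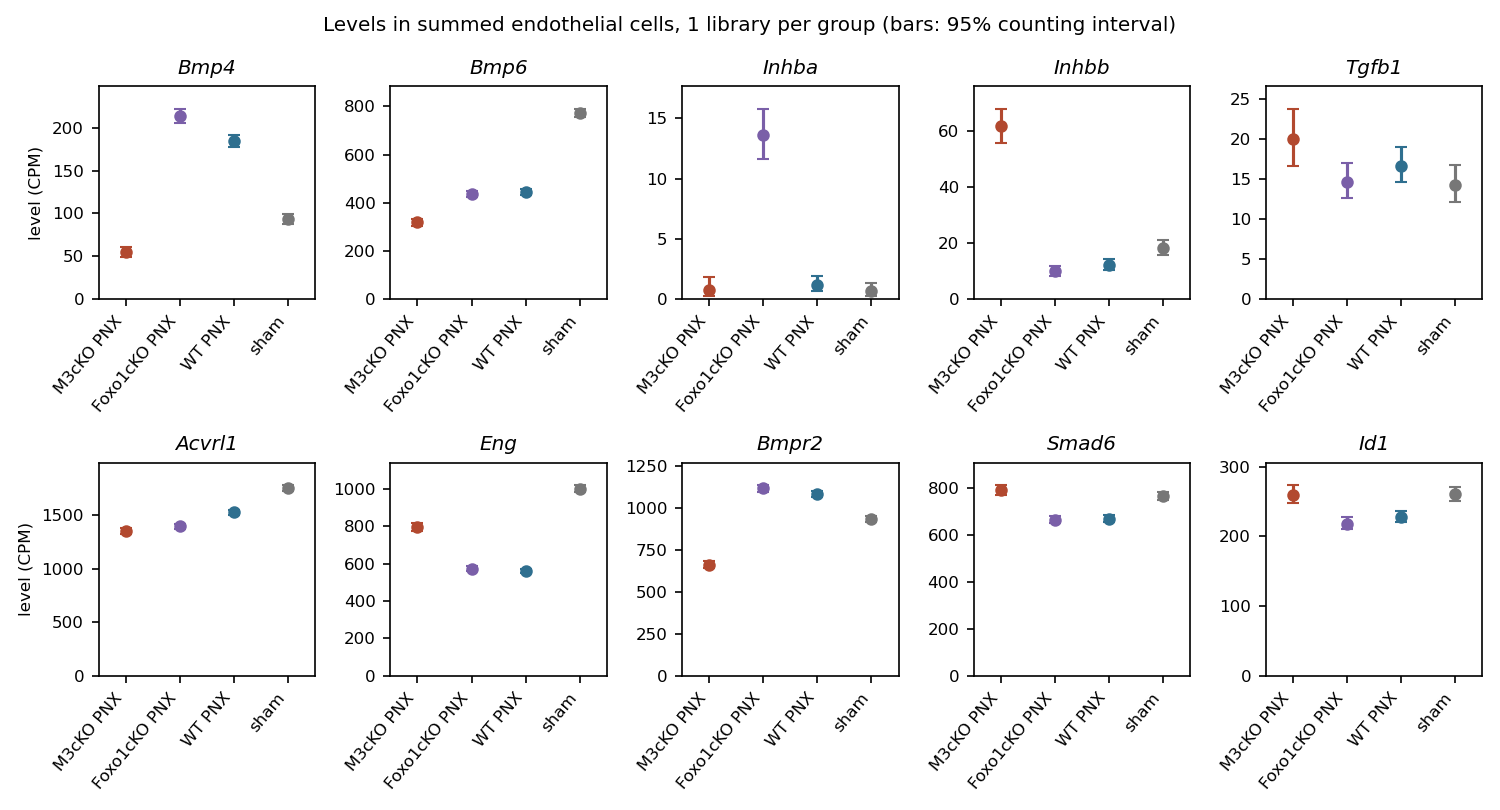
Levels of the 10 genes in summed endothelial cells, in CPM on linear axes that start at 0, with M3cKO PNX, Foxo1cKO PNX, WT PNX and sham from left to right; points are single libraries and bars are 95% counting intervals. Inhbb stands at 61.8 CPM in M3cKO PNX against 9.96 to 18.4 in the other libraries, and Bmp4 at 55.0 CPM in M3cKO PNX against 93.6 to 214.

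Acvrl1 (chromosome 15, 101128522 to 101145336, plus strand), the ALK1 gene, was at 1355 CPM in M3cKO PNX (1326 to 1383), 1395 in Foxo1cKO PNX (1374 to 1416), 1526 in WT PNX (1505 to 1546) and 1755 in sham (1729 to 1780.1). It was highest in sham, and no ratio reached 1.5-fold. WT PNX stood at 0.870 times sham (0.852 to 0.887), M3cKO PNX at 0.888 times WT PNX (0.866 to 0.910) and Foxo1cKO PNX at 0.914 times WT PNX (0.896 to 0.933).

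Eng (chromosome 2, 32646595 to 32682669, plus strand) was at 794 CPM in M3cKO PNX (772 to 816), 571 in Foxo1cKO PNX (558 to 585), 560.1 in WT PNX (548 to 573) and 1000 in sham (981 to 1019). Sham was highest, M3cKO PNX lay between, and the other two overlapped at the bottom. Endoglin transcripts were 1.79-fold lower in WT PNX than in sham (1.73 to 1.84), and M3cKO PNX stood at 1.42 times WT PNX (1.37 to 1.47). Of the thinned cells, 70.2%, 61.7%, 60.3% and 78.8% had an Eng UMI in M3cKO PNX, Foxo1cKO PNX, WT PNX and sham. Over all cells without thinning the shares were 74.0%, 69.6%, 72.2% and 78.8%.

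Bmpr2 (chromosome 1, 59763400 to 59879014, plus strand) was at 662 CPM in M3cKO PNX (643 to 682), 1119 in Foxo1cKO PNX (1100.0 to 1137), 1087 in WT PNX (1069 to 1104) and 934 in sham (916 to 953). M3cKO PNX was below every other library, 1.64-fold lower than WT PNX (1.59 to 1.70) and 1.41-fold lower than sham (1.36 to 1.46). WT PNX over sham was 1.16 (1.13 to 1.19).

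Smad6 and Id1 stayed under 1.5-fold in the 3 comparisons over all endothelial cells. Smad6 (chromosome 9, 63953076 to 64022059, minus strand) was at 790.0 CPM in M3cKO PNX (769 to 812), 666 in Foxo1cKO PNX (652 to 681), 669.8 in WT PNX (656 to 684) and 767 in sham (751 to 784). Id1 (chromosome 2, 152736251 to 152737410, plus strand) was at 259.8 CPM in M3cKO PNX (248 to 273), 218 in Foxo1cKO PNX (210.0 to 227), 228 in WT PNX (219.7 to 236) and 260.0 in sham (250.3 to 269.9). For each gene the M3cKO PNX and sham intervals overlapped at the top and the Foxo1cKO PNX and WT PNX intervals overlapped at the bottom. The ratios of M3cKO PNX over WT PNX were 1.18 for Smad6 (1.14 to 1.22) and 1.14 for Id1 (1.08 to 1.21).

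The first comparison asks what differs in wild-type endothelium on day 7 after PNX. Of 9 genes at 10 CPM or more in either library, 1 stood at least 1.5-fold above sham in WT PNX (Bmp4) and 3 as far below (Bmp6, Inhbb and Eng), where 11.3% of the 9132 genes measured were higher and 6.98% lower. The median log2 ratio (with 5 CPM added) was -0.19 over the 9 and 0.04 over all. Scaling by TMM factors, which balance the bulk of genes, moved the share of called genes that were higher in WT PNX to 51.0%, against 61.8% by total UMIs, and left the same 4 genes called. The Bmp4 call was lost in 2 of 14 alternative settings. Among Y-transcript cells (those with Y-linked but no Xist UMIs) the levels were 155 CPM in WT PNX against 106 in sham, and with each library's classes weighted to their WT PNX shares 184 in WT PNX against 143 in sham. Bmp6 kept its call in 11 of 14 settings, Inhbb in 8 and Eng in 14; with at most 5% mitochondrial UMIs Bmp6 was at 456 CPM in WT PNX against 594 in sham. In general capillary-like cells, described below, 1 of 9 genes was higher (Bmp4; 10.2% of all measured genes) and 1 lower (Eng; 6.85%), and in aerocyte-like cells 1 of 8 was higher (Bmp4; 9.39%) and 1 lower (Eng; 7.97%).

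The second comparison sets M3cKO PNX against WT PNX, and it shares the WT PNX library with the first and the third. Of 9 genes measured 1 was higher in M3cKO PNX (Inhbb) and 2 were lower (Bmp4 and Bmpr2), where 6.37% of 9089 genes were higher and 14.4% lower. The median log2 ratio was 0.19 over the 9 genes and -0.13 over all. TMM factors brought the median of all genes to -0.01 and the share of called genes that were higher in M3cKO PNX to 48.2%, against 30.7% by total UMIs, and with them Eng passed the fold as well (838 CPM in M3cKO PNX, 542 in WT PNX). Among Y-transcript cells the 3 calls held, with Inhbb at 60.5 CPM in M3cKO PNX against 13.5 in WT PNX, Bmp4 at 62.9 in M3cKO PNX against 155 in WT PNX, and Bmpr2 at 631 in M3cKO PNX against 954 in WT PNX. Bmp6 was 1.40-fold lower in all cells. It passed the fold in the same direction with cells thinned to 2000 UMIs (285 CPM in M3cKO PNX, 469.7 in WT PNX). With classes weighted alike it passed as well (276 in M3cKO PNX, 445 in WT PNX). Other settings narrowed the Bmp6 difference. Its log2 ratio was -0.47 as reported and ran from -0.72 to -0.35 over the alternatives. In general capillary-like cells 1 of 9 genes was higher (Inhbb; 7.02% of all measured) and 3 were lower (Bmp4, Bmp6 and Bmpr2; 16.6%), and in aerocyte-like cells 0 of 8 were higher (8.97%) and 3 lower (Bmp4, Bmp6 and Bmpr2; 18.1%). Set against sham instead, M3cKO PNX had 1 of 9 genes higher (Inhbb; 7.96% of all measured) and 2 lower (Bmp4 and Bmp6; 11.6%).

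The third comparison sets Foxo1cKO PNX against WT PNX. Of all 10 genes 1 was higher (Inhba, through the cell described above) and 0 were lower, where 1.09% of 9052 genes were higher and 1.39% lower. The median log2 ratio was -0.02 over the 10 and -0.01 over all. The other 9 genes had ratios between 0.817 (Inhbb, 0.642 to 1.04) and 1.16 (Bmp4). Bmp4 went opposite ways by sex transcript: in Y-transcript cells it was at 251 CPM in Foxo1cKO PNX against 155 in WT PNX, and in Xist-transcript cells (Xist but no Y-linked UMIs) at 183 in Foxo1cKO PNX against 242 in WT PNX. That difference was not tested. In general capillary-like cells 0 of 9 genes were higher (2.79% of all measured) and 1 was lower (Inhbb; 2.66%), and in aerocyte-like cells 0 of 8 passed in either direction (3.64% higher, 3.57% lower).

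**Figure D2:**
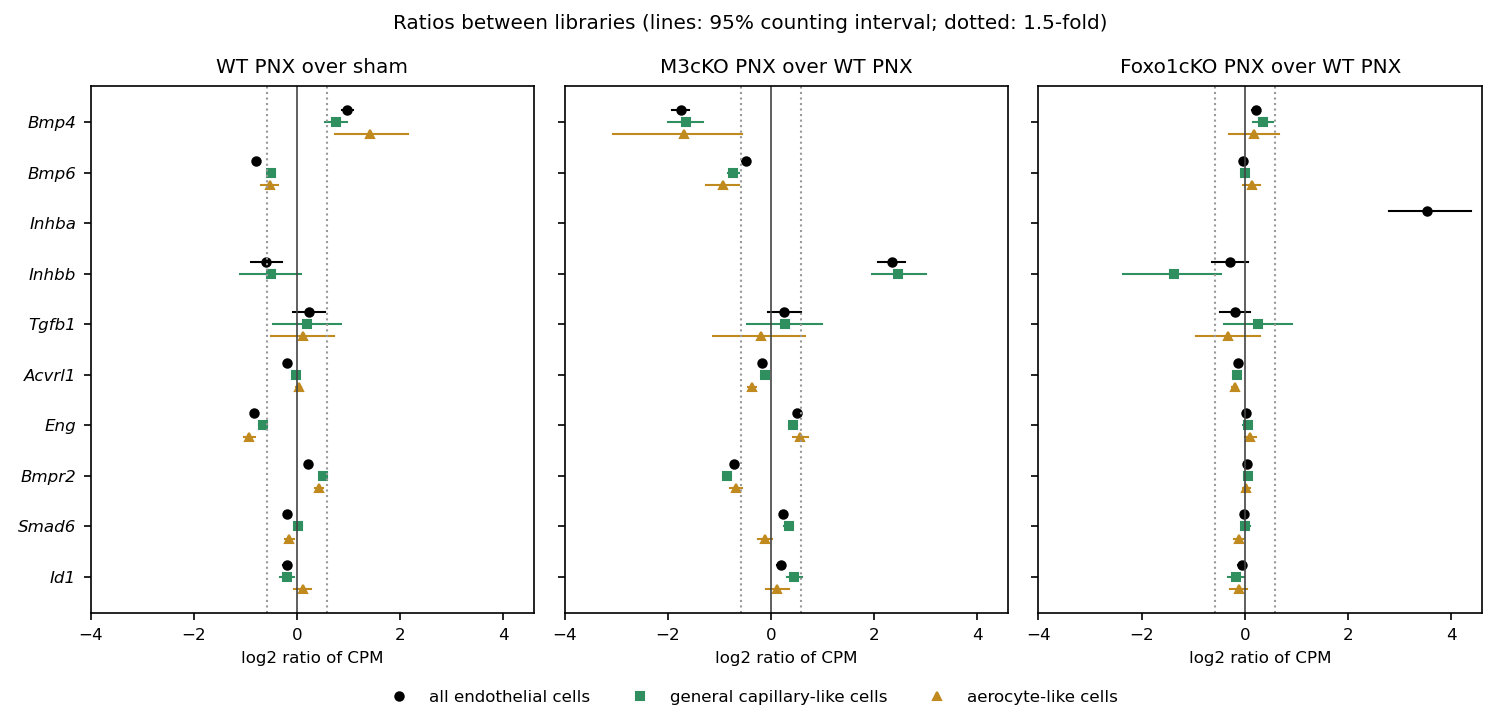
Log2 ratios of CPM for the 10 genes in the 3 comparisons, for all endothelial cells, general capillary-like cells and aerocyte-like cells; points are ratios, lines are 95% counting intervals, dotted lines mark 1.5-fold, and ratios with less than 10 CPM in both libraries are left out. Bmp4 lies right of the dotted line in WT PNX over sham and left of it in M3cKO PNX over WT PNX for each kind of cell, and all but Inhba and Inhbb lie within the dotted lines in Foxo1cKO PNX over WT PNX.

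Cells were next split into classes by clustering that left out these 10 genes, the pathway lists below and sex-linked genes. General capillary-like cells held 1062, 1285, 1312 and 2192 cells of M3cKO PNX, Foxo1cKO PNX, WT PNX and sham, and aerocyte-like cells (the thin capillary cells of gas exchange) 246, 717, 643 and 808. Venous-like, arterial-like, lymphatic-like and proliferating classes were also named from their markers. Clusters without enough markers are called by their leading genes, for example Prnd and Esm1. Values are given for classes with at least 50 cells in a library. A level summed over all cells moves with the shares of the classes as well as with the RNA of each cell, and the 2 cannot be told apart in the sum alone: proliferating cells were 3.21%, 5.83%, 8.28% and 0.429% of M3cKO PNX, Foxo1cKO PNX, WT PNX and sham.

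Bmp4 was higher in venous-like and arterial-like cells than in the capillary-like classes of WT PNX and sham. In WT PNX it was at 439 CPM in venous-like (404 to 476), 381 in arterial-like (337 to 429) and 131 in general capillary-like cells (119 to 144), against 25.9 in aerocyte-like cells (66 UMIs) and 3.23 (1 UMI) in lymphatic-like cells. In sham the same classes had 279.9, 451, 77.3, 9.66 and 13.0 CPM. The intervals of venous-like and arterial-like cells overlapped in WT PNX and not in sham. The ratio of WT PNX over sham was 1.69 in general capillary-like cells (1.46 to 1.96), 2.68 in aerocyte-like cells (1.67 to 4.43), 1.57 in venous-like cells (1.34 to 1.84) and 0.844 in arterial-like cells (0.694 to 1.03). Between M3cKO PNX and WT PNX the ratio was below 1 in 8 of 8 classes compared, with an interval clear of 1 in 6. Venous-like cells had 129 CPM in M3cKO PNX (102 to 162) and 439 in WT PNX.

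Bmp6, in contrast, was highest in general capillary-like cells among these 4 named classes of blood vessel. In WT PNX it was at 852 CPM in general capillary-like cells (821 to 884), 422 in arterial-like (375 to 472), 214 in aerocyte-like (196 to 233) and 156 in venous-like cells (135 to 178), and in sham at 1202, 685, 309 and 369. WT PNX was below sham in 8 of 9 classes, with an interval clear of 1 in 7. In general capillary-like cells M3cKO PNX was at 515 CPM (485 to 547), 1.65-fold lower than WT PNX (1.54 to 1.78), and in aerocyte-like cells at 112 (91.2 to 137), 1.90-fold lower (1.53 to 2.38). Both pass the fold that the sum over all cells did not reach. Of 8 classes M3cKO PNX was below WT PNX in 7, with an interval clear of 1 in 5, and the ratio was 0.884 in venous-like cells (0.674 to 1.15), 0.986 in arterial-like cells (0.737 to 1.30) and 1.02 in the Prnd Esm1 cluster (0.795 to 1.30).

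The class with the highest Inhbb level was the Prnd Esm1 cluster in M3cKO PNX, WT PNX and sham, and the Fabp4 Igfbp3 cluster in Foxo1cKO PNX, at 80.0 CPM (59.7 to 105). General capillary-like cells held the larger part of its UMIs in M3cKO PNX, 34.9% against 27.9% in the Prnd Esm1 cluster. The Prnd Esm1 cluster had 229.9 CPM in M3cKO PNX (189 to 277), 38.7 in Foxo1cKO PNX (24.3 to 58.6), 55.2 in WT PNX (37.5 to 78.3) and 166 in sham (109 to 244). In arterial-like cells there were 24 UMIs in M3cKO PNX (161 CPM, 103 to 239), 0 in Foxo1cKO PNX, which allows up to 3.83 CPM (3 UMIs), 6 in WT PNX (8.46 CPM, 3.11 to 18.4) and 17 in sham (45.1 CPM, 26.3 to 72.3). M3cKO PNX and sham were the high libraries in both classes, but single cells weighed heavily: the richest cell held 42 of 112 UMIs of the Prnd Esm1 cluster in M3cKO PNX and 13 of 26 in sham. Without the richest cell of each library, a setting added after the data were seen, that cluster was at 144 CPM in M3cKO PNX (112 to 182), 26.4 in Foxo1cKO PNX (14.8 to 43.6), 48.1 in WT PNX (31.7 to 69.9) and 83.2 in sham (44.3 to 142), so the sham and WT PNX intervals then overlapped. Arterial-like cells without it had 101 CPM in M3cKO PNX (56.3 to 166), 5.64 in WT PNX (1.54 to 14.4) and 37.2 in sham (20.3 to 62.4). General capillary-like cells had 68.0 CPM in M3cKO PNX (57.2 to 80.3), 4.79 in Foxo1cKO PNX (2.62 to 8.04), 12.3 in WT PNX (8.84 to 16.7) and 17.6 in sham (13.7 to 22.2). The M3cKO PNX level was above WT PNX in all 7 classes measured, with an interval clear of 1 in 6. Foxo1cKO PNX was 2.57-fold lower than WT PNX in general capillary-like cells (1.37 to 5.11, from 14 UMIs in Foxo1cKO PNX and 41 in WT PNX) and 3.22-fold higher in the Fabp4 Igfbp3 cluster (1.69 to 6.62, from 52 UMIs in Foxo1cKO PNX and 12 in WT PNX).

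Eng was lower in WT PNX than in sham in 9 of 9 classes, with every interval clear of 1. The difference ran from 1.48-fold in the Atf3 Fam71a cluster to 2.72-fold in lymphatic-like cells. Arterial-like cells had 858 CPM in M3cKO PNX (716 to 1021), 581 in Foxo1cKO PNX (529 to 637), 467 in WT PNX (418 to 520.1) and 1142 in sham (1036 to 1255). M3cKO PNX was above WT PNX in 8 of 8 classes, from 1.20-fold to 1.84-fold, with an interval clear of 1 in 7.

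Bmpr2 was below WT PNX in M3cKO PNX in 8 of 8 classes, each with an interval clear of 1, from 1.23-fold in arterial-like cells to 2.17-fold in the Atf3 Fam71a cluster. General capillary-like cells had 891 CPM in M3cKO PNX (850.5 to 933), 1672 in Foxo1cKO PNX (1625 to 1719), 1614 in WT PNX (1571 to 1658) and 1135 in sham (1102 to 1168). There the ratio of WT PNX over sham was 1.42 (1.37 to 1.48), and in aerocyte-like cells 1.34 (1.27 to 1.41). With classes weighted alike the levels were 1087 CPM in WT PNX against 780.1 in sham, a wider gap than the 1.16 of the plain sums. That weighting also leans on the 20 proliferating cells of sham. Proliferating cells, with 322 cells in WT PNX and 20 in sham, were at 750.0 CPM in WT PNX (711 to 791).

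**Figure D3:**
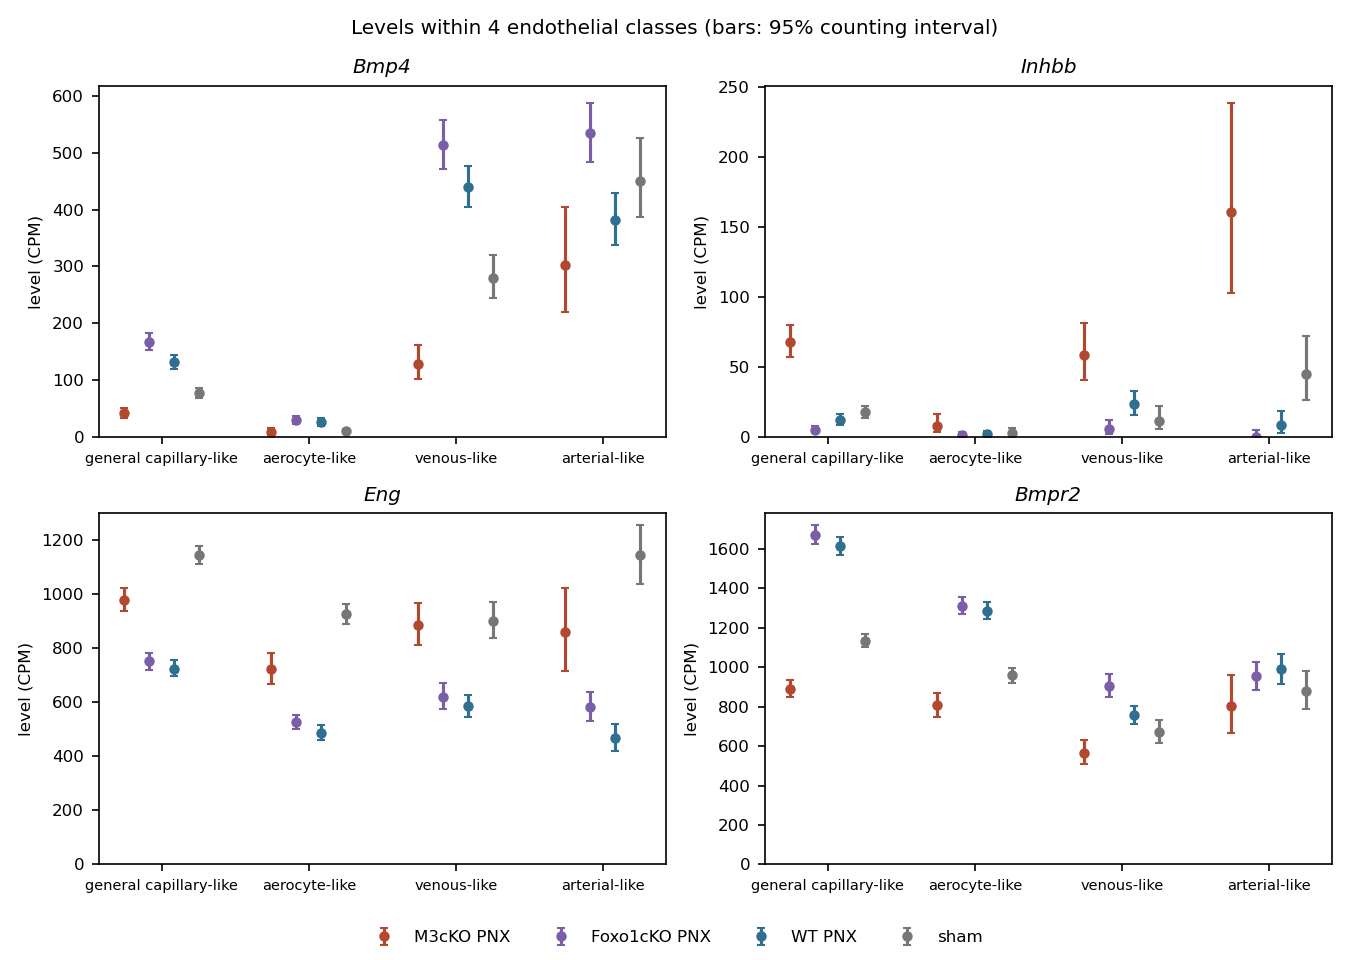
Levels of Bmp4, Inhbb, Eng and Bmpr2 in general capillary-like, aerocyte-like, venous-like and arterial-like cells, in CPM on axes that start at 0, with M3cKO PNX, Foxo1cKO PNX, WT PNX and sham from left to right in each class; points are single libraries and bars are 95% counting intervals. Eng in WT PNX lies below sham in each class, Bmpr2 in M3cKO PNX below WT PNX in each, and Inhbb in arterial-like cells at 161 CPM in M3cKO PNX against 8.46 in WT PNX.

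Acvrl1 was highest in aerocyte-like cells, with 1892 CPM in M3cKO PNX (1802 to 1986), 2126 in Foxo1cKO PNX (2073 to 2181), 2433 in WT PNX (2373 to 2494) and 2368 in sham (2309 to 2428). General capillary-like cells came next, at 1748 CPM in M3cKO PNX (1691 to 1806), where the 2 intervals overlapped, and at 1893 in WT PNX (1847 to 1940.5). Lymphatic-like cells had 84.7 CPM in Foxo1cKO PNX, 84.0 in WT PNX and 157 in sham. The same cells were low in Bmpr2, at 120.4, 109.9 and 149 CPM in Foxo1cKO PNX, WT PNX and sham, and in Smad6, at 13.4, 45.3 and 49.6. Tgfb1, by contrast, was at 26.8, 25.9 and 20.9 CPM there, near the 12.0 to 19.6 CPM of capillary-like classes in WT PNX.

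Smad6 was highest in arterial-like cells, at 1381 CPM in M3cKO PNX (1199 to 1583), 1269 in Foxo1cKO PNX (1191 to 1350.0), 1112 in WT PNX (1035 to 1192) and 1678 in sham (1550.0 to 1814). It was low in the Fabp4 Igfbp3 cluster, at 32.3 CPM in Foxo1cKO PNX and 55.9 in WT PNX, where Acvrl1 was at 279.8 and 309 CPM. In general capillary-like cells Smad6 was at 1068 CPM in M3cKO PNX (1024 to 1114), 853 in Foxo1cKO PNX, 841 in WT PNX (809.8 to 872) and 825 in sham (797 to 853). Id1 in those cells was at 348 CPM in M3cKO PNX (323 to 374), 225 in Foxo1cKO PNX (209 to 243), 254 in WT PNX (237 to 271) and 289.9 in sham (273 to 307). So both targets were higher in M3cKO PNX than in any other library there, by 1.27 (1.20 to 1.34) for Smad6 and 1.37 (1.24 to 1.52) for Id1 over WT PNX, below the fold that counts as a call. In aerocyte-like cells the same ratios were 0.923 (0.846 to 1.01) for Smad6 and 1.09 (0.933 to 1.27) for Id1. Of 8 classes Smad6 was above WT PNX in 5, all with an interval clear of 1, and below in 3. Id1 was above in 6, with an interval clear of 1 in 2, and below in 2.

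**Figure D4:**
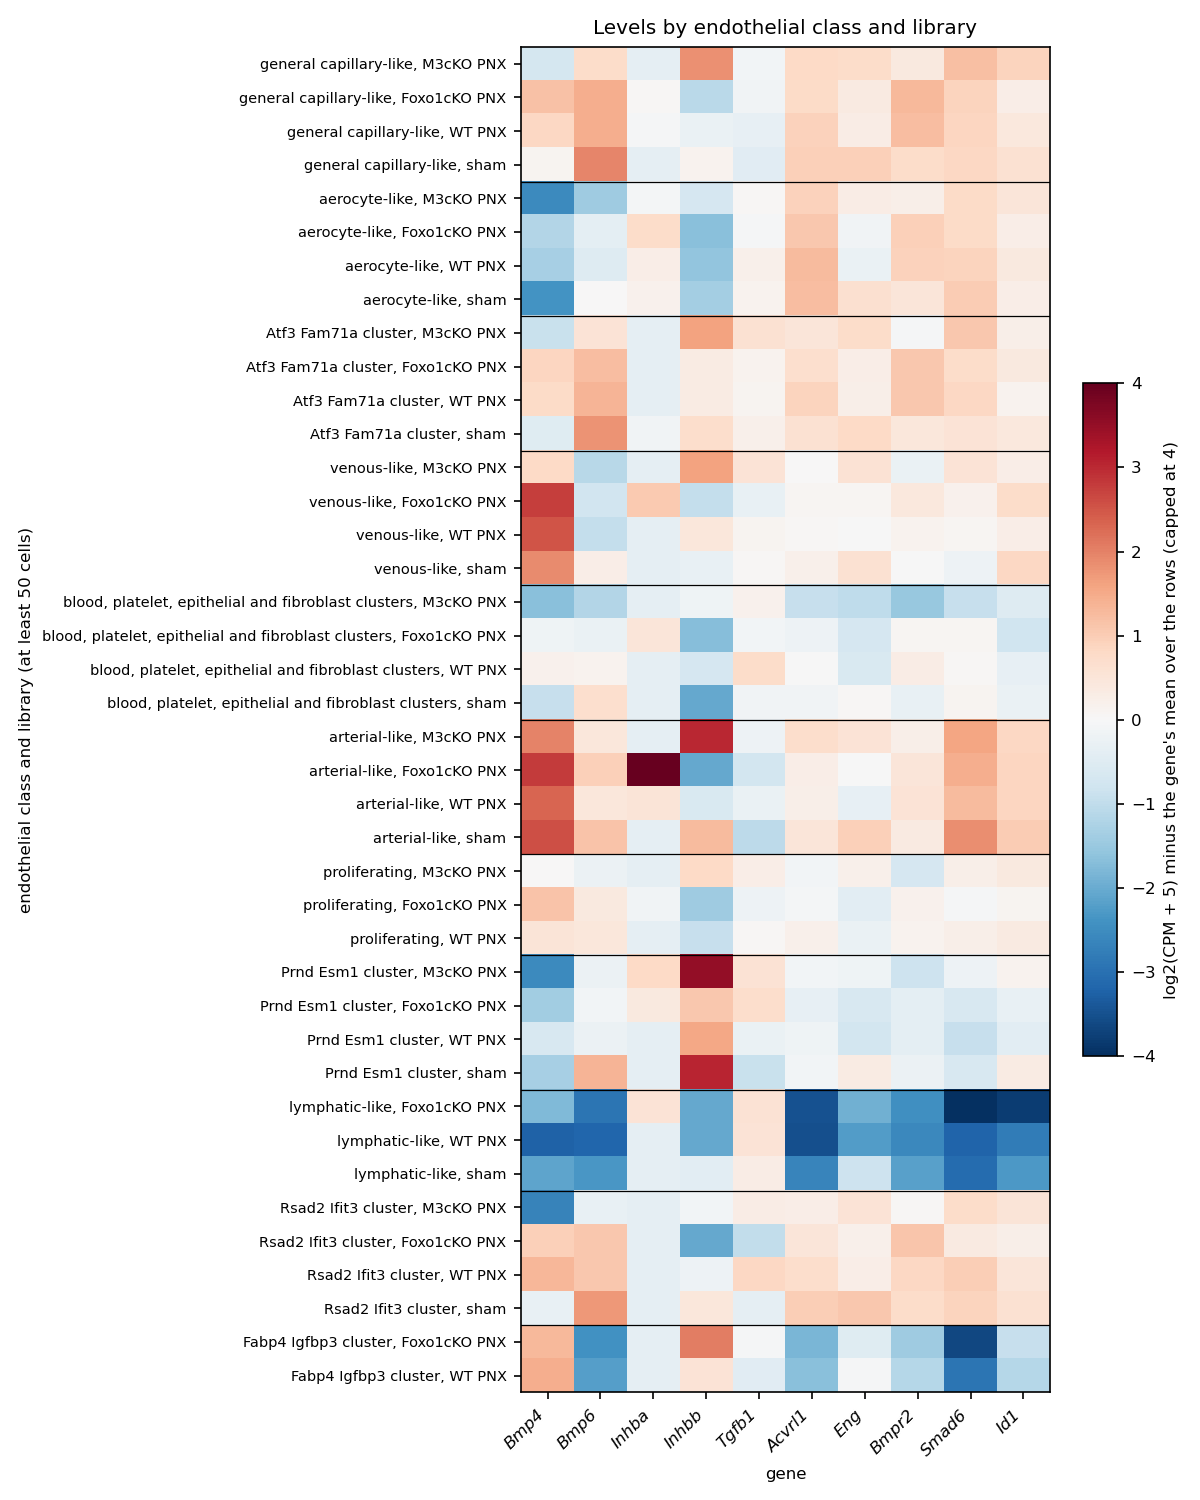
Levels of the 10 genes by endothelial class and library with at least 50 cells (1 cluster is not shown), as log2(CPM + 5) minus the mean of that gene over the rows; red is higher and blue lower, and the colours stop at 4. Within each class the libraries run M3cKO PNX, Foxo1cKO PNX, WT PNX and sham from top to bottom. Lymphatic-like rows are blue for Acvrl1, Bmpr2, Smad6 and Id1, Bmp4 is red in venous-like and arterial-like rows, and the dark Inhba cell in Foxo1cKO PNX arterial-like is the 122 UMIs of 1 cell.

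The genes most like each member across 43 sums of a class in a library (12 classes, 10258 genes ranked, Pearson correlation of log2(CPM + 5)) describe these layouts, and the sums of a library share its depth and handling. Bmp4 was closest to Adgrg6 (0.89) and Vwf (0.87), the gene of von Willebrand factor. Bmp6 was closest to Rnf144a (0.90) and Atp2a3 (0.90), Inhbb to Pvr (0.75) and Yrdc (0.73). Acvrl1 was closest to Adgre5 (0.95) and Epas1 (0.95), Eng to Adcy4 (0.89), and Id1 to Gstm2 (0.94). Bmpr2 ranked Calcrl first (0.94) and Acvrl1 second (0.93), and Smad6 ranked Adgre5 first (0.94) and Smad7, the other inhibitory SMAD gene, second (0.94). Tgfb1 (Itgav, 0.61) and Inhba (Wnt9b, 0.66) had no close match.

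Outside the endothelium, 2769 cells were gated as leukocytes and 120 as fibroblasts (at least 2 UMIs of Col1a1 and Col1a2). Over all libraries Acvrl1 was at 23.3 CPM in leukocyte-gated and 79.6 in fibroblast-gated cells, Eng at 8.18 and 51.0, and Smad6 at 7.05 and 22.4, all under the levels of the summed endothelial cells, though lymphatic-like cells came as low in Acvrl1 and Smad6. Bmp4 was at 199.9 CPM in fibroblast-gated cells, and at 2.01 in leukocyte-gated cells. By library the fibroblast-gated cells had 119 CPM of Bmp4 in M3cKO PNX (27 UMIs, 13 of them in 1 cell, 78.6 to 174), 195 in Foxo1cKO PNX (122 to 295), 336 in WT PNX (242 to 454) and 273 in sham (109.7 to 562), from 12 to 41 cells each. The M3cKO PNX interval lay below that of WT PNX there too. Inhba was at 14.6 CPM (67 UMIs) in the leukocyte-gated cells of M3cKO PNX, against 2.76 in Foxo1cKO PNX, 0.745 in WT PNX and 0 UMIs in 101 cells of sham (which allows up to 14.2 CPM). Summed fibroblast markers in the endothelial cells ran in the same order as Bmp4 across the 4 libraries (10.2, 117, 85.9 and 32.3 CPM), and their part in the Bmp4 differences was not tested. Without the clusters led by other cells' genes Bmp4 was at 58.1 CPM in M3cKO PNX, 223 in Foxo1cKO PNX, 191 in WT PNX and 96.0 in sham. The fibroblast markers were then still at 9.72, 109.5, 75.7 and 26.2 CPM in the same order of libraries. That setting removed little of them, so it cannot show their part.

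The rest of the pathway was read through 7 lists of other genes, for which the background shares of the same comparisons above apply. Among 24 other ligand genes only 2 or 3 reached 10 CPM. Tgfb2, a TGF-beta ligand, stood 1.52-fold above sham in WT PNX (33.7 CPM against 22.1). It was not called in that comparison within general capillary-like or aerocyte-like cells. Bmp2 was at 18.9 CPM in M3cKO PNX, 11.2 in Foxo1cKO PNX, 7.38 in WT PNX and 7.91 in sham. It stood above WT PNX by 2.57-fold in M3cKO PNX (1.96 to 3.38) and by 1.52-fold in Foxo1cKO PNX (1.16 to 1.98). The richest cell held 15.2% of the Bmp2 UMIs in Foxo1cKO PNX, 7.32% in M3cKO PNX and 5.94% in WT PNX. The Foxo1cKO PNX ratio lies just past the fold. Without the UMIs of its richest cell the 11.2 CPM of Foxo1cKO PNX would fall under the 10 CPM minimum, so that call rests on 1 cell. Bmp2 falls under the 20 CPM asked of a named gene and was singled out after its values were seen. The receptor list had 9 measured genes in the first comparison, 8 in the second and 9 in the third, of which 1, 1 and 0 were lower and 0 higher. The co-receptor betaglycan (Tgfbr3), a relative of endoglin, was 1.62-fold lower in WT PNX (99.5 CPM) than in sham (161). The activin receptor gene Acvr2a was 1.52-fold lower in M3cKO PNX (29.4 CPM) than in WT PNX (44.8). Neither gene was called in its comparison within general capillary-like or aerocyte-like cells. In M3cKO PNX against WT PNX, Tgfbr2 was called lower in general capillary-like cells, and Acvr2b and Tgfbr1 in aerocyte-like cells. The list's median log2 ratio was -0.05 in WT PNX over sham, -0.30 in M3cKO PNX over WT PNX and 0.09 in Foxo1cKO PNX over WT PNX, against 0.04, -0.13 and -0.01 over all genes. Bmpr1a, a type I BMP receptor singled out after its values were seen, was under 2 CPM in all 4 libraries: 0.308 in M3cKO PNX, 0.972 in Foxo1cKO PNX, 1.68 in WT PNX and 1.81 in sham.

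Among extracellular modulators, 2 of 4 measured genes stood above sham in WT PNX, and the list's median log2 ratio was 0.33. Between M3cKO PNX and WT PNX 0 of 3 were higher and 1 was lower, with a median of -0.48, and between Foxo1cKO PNX and WT PNX 0 of 4 passed in either direction, with a median of 0.09. Fstl1, a secreted follistatin-like glycoprotein that can bind BMP4 and activin, was at 155 CPM in M3cKO PNX, 427 in Foxo1cKO PNX, 352 in WT PNX and 161 in sham. The ratio of WT PNX over sham was 2.19 (2.07 to 2.32), and M3cKO PNX was 2.27-fold lower than WT PNX (2.12 to 2.44), with an interval that overlapped that of sham. These are sums over all endothelial cells. In general capillary-like cells Fstl1 was called lower in M3cKO PNX than in WT PNX, but was not called between WT PNX and sham. In aerocyte-like cells it was called in neither comparison. Twsg1, which acts with chordin on BMPs, was at 36.0 CPM in WT PNX against 19.4 in sham (1.85-fold, 1.57 to 2.19).

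Of 10 measured genes of TGF-beta latency and activation, 2 were higher and 2 lower in WT PNX than in sham. Thbs1, which can release active TGF-beta, had 112 CPM in WT PNX against 41.1 in sham (2.74-fold, 2.46 to 3.05), and Nrros, whose protein holds latent TGF-beta at the cell surface, 133 in WT PNX against 62.4 in sham (2.14-fold). Ltbp4, a latent TGF-beta binding protein, was 1.82-fold lower (196 CPM in WT PNX, 356 in sham) and the integrin gene Itgb5 2.54-fold lower (274 UMIs in WT PNX, 534 in sham). In M3cKO PNX against WT PNX, Lrrc32 (GARP, the surface anchor of latent TGF-beta) was 2.11-fold higher (146 CPM in M3cKO PNX, 69.5 in WT PNX) and Furin, a protease that cleaves the ligands' precursors, 1.66-fold higher (139.7 in M3cKO PNX, 84.0 in WT PNX), while Ltbp3 and Nrros were 1.53-fold lower each. The median log2 ratio of the latency list was 0.07 in WT PNX over sham, -0.07 in M3cKO PNX over WT PNX and 0.03 in Foxo1cKO PNX over WT PNX. Of the 10, 0 passed the fold between Foxo1cKO PNX and WT PNX over all endothelial cells. Between WT PNX and sham, Nrros, Thbs1 and Ltbp4 were also called in both capillary-like classes, and Itgb5 in aerocyte-like cells only. Between M3cKO PNX and WT PNX, Ltbp4 was called higher and Thbs1 lower in both classes. Lrrc32 and Nrros kept their calls in general capillary-like cells only, and Furin and Ltbp3 in neither class. Against WT PNX, Foxo1cKO PNX had Lrrc32 called lower in general capillary-like and Ltbp4 in aerocyte-like cells.

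The SMADs and their regulators gave 2 calls in 11 measured genes between WT PNX and sham, both co-repressors and both higher: Skil (123 CPM in WT PNX, 80.0 in sham) and Tgif1 (37.8 in WT PNX, 22.2 in sham). Their median log2 ratio there was 0.10. Against WT PNX they gave 0 of 12 in M3cKO PNX and 0 of 11 in Foxo1cKO PNX over all endothelial cells. Between WT PNX and sham, both capillary-like classes had Skil called higher and Smad1 lower, and aerocyte-like cells also had Tgif1 higher. In M3cKO PNX against WT PNX, general capillary-like cells had Pmepa1 called higher and Smad5 lower. Aerocyte-like cells had Smurf1 called higher and Tgif1 lower there. Of 6 measured BMP target genes, with a median of -0.01 in WT PNX over sham and -0.11 in M3cKO PNX over WT PNX, 1 passed: Id2 was at 81.6 CPM in M3cKO PNX, 151 in Foxo1cKO PNX, 154 in WT PNX and 74.8 in sham. The ratio of WT PNX over sham was 2.06 (1.90 to 2.24), and M3cKO PNX was 1.89-fold lower than WT PNX (1.72 to 2.08). These are sums over all endothelial cells. Between WT PNX and sham, general capillary-like cells had Id2 called higher and Id3 lower, and aerocyte-like cells had neither called. Id2 was called lower in M3cKO PNX than in WT PNX in both classes. Its relative Id1 had the other order, with M3cKO PNX and sham above WT PNX. Of 7 measured TGF-beta and activin targets reported here, 2 stood above sham in WT PNX: Skil and Fn1 (62.6 in WT PNX, 24.3 in sham, 2.58-fold), the fibronectin gene. In M3cKO PNX against WT PNX, Fn1 was 2.38-fold lower (26.3 CPM in M3cKO PNX) and Tgfbi, also under 20 CPM, 2.10-fold lower (8.32 in M3cKO PNX, 17.5 in WT PNX). The median log2 ratio of these 7 genes was 0.21 in the first comparison, -0.20 in the second and 0.24 in the third. Over all genes it was 0.04, -0.13 and -0.01. These are sums over all endothelial cells, and the capillary-like classes had other calls in the second comparison. In general capillary-like cells the targets Ccn2 and Pmepa1 passed the fold upward in M3cKO PNX, and in aerocyte-like cells Ccn2 did. In both classes 0 targets passed it downward. Fewer targets reached 10 CPM in these classes than over all endothelial cells, and a gene under that level could not be called. The 0 therefore does not show that Fn1 or Tgfbi held their level there.

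**Figure D5:**
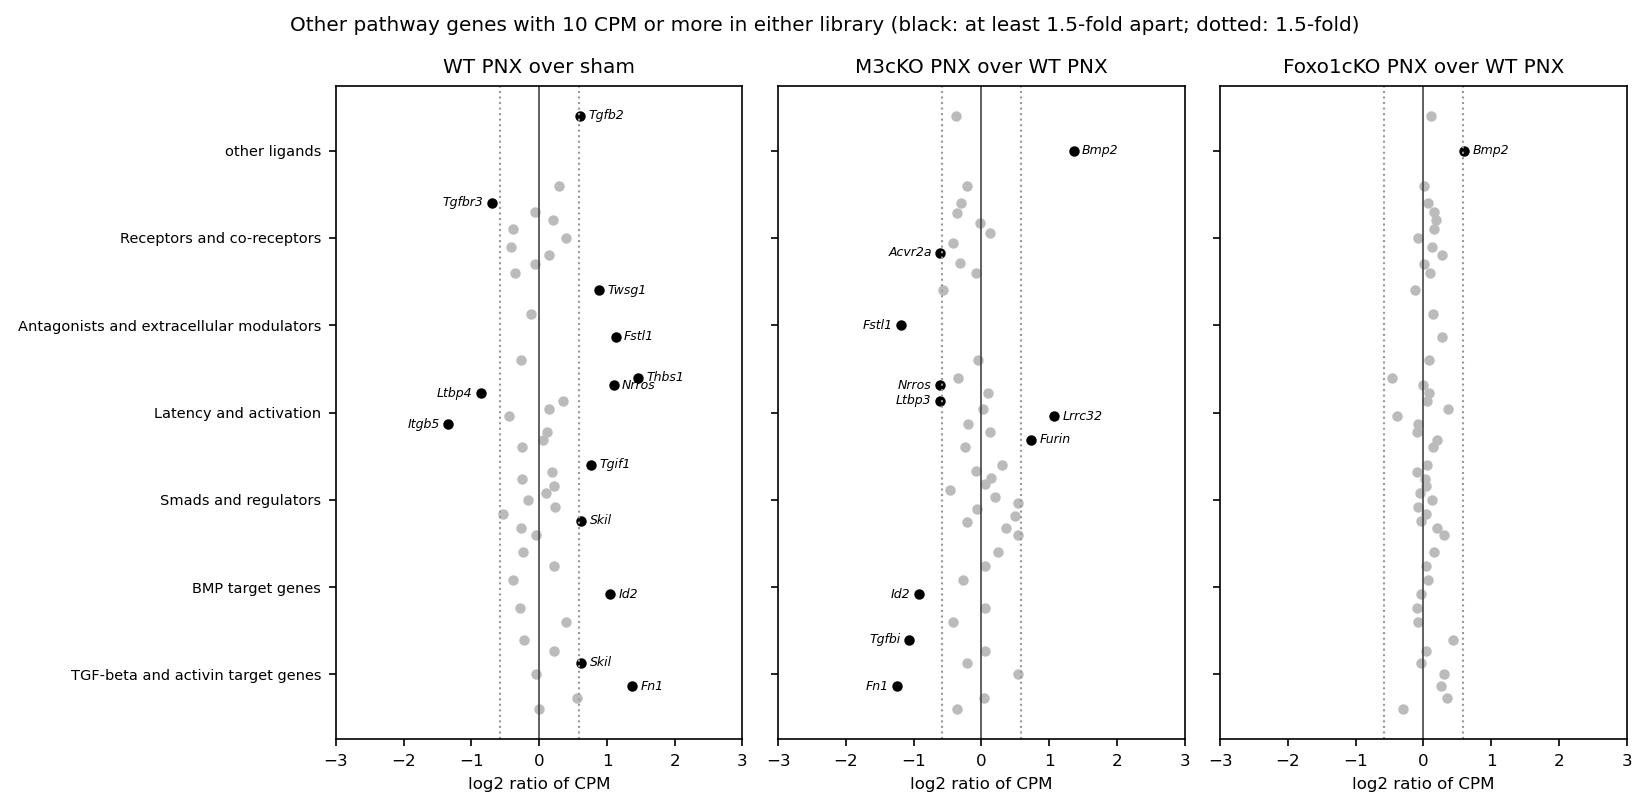
Log2 ratios of CPM over all endothelial cells of the other pathway genes reported here with 10 CPM or more in either library, by list, in the 3 comparisons; each point is a gene, black points with names are at least 1.5-fold apart, and dotted lines mark 1.5-fold. Fstl1 and Id2 lie right of the dotted line in WT PNX over sham and left of it in M3cKO PNX over WT PNX, and Bmp2 is the only black point in Foxo1cKO PNX over WT PNX. Of the Bmp2 UMIs in Foxo1cKO PNX, 15.2% came from 1 cell, on which that call rests.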

How the data were processed

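Mouse lung libraries were deposited as raw UMI counts per gene and barcode. The labels' protocols name Cell Ranger 2.1.1 and mm10, while the matrix headers state software 3.0.0. The counts are whole numbers as the authors deposited them, for 7617 to 9266 barcodes and 16197681 to 30445999 UMIs per library. The 10 genes, the pathway lists and the named-gene rule were chosen with earlier results of these data known. The rule named up to 5 genes per list with the largest ratio at 20 CPM or more, and up to 3 of the most alike genes of each member.

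Each library's endothelial UMIs were added up and scaled to CPM. Levels have exact Poisson and ratios exact conditional binomial intervals, at 95% and for counting error only. Ratios in the text have no pseudocount, and log2 medians have 5 CPM added. A gene counted as measured at 10 CPM in either library and as called at 1.5-fold. Classes came from 2000 variable genes, centred and scaled within each library, 40 principal components, 20 neighbours and Leiden clustering at resolution 1. Centring within libraries was chosen after an uncentred clustering had split capillary cells by library. A cluster was named with at least 3 class markers among 50 leading genes. Doublets were left in, and an alternative removed the top Scrublet scores, since Scrublet's own threshold marked 4, 264, 274 and 1 barcodes in M3cKO PNX, Foxo1cKO PNX, WT PNX and sham. Steps were tested on simulated data. Python 3.11.15, scanpy 1.11.5 and edgeR 4.0.16 (TMM factors only) were used. Of 14 alternatives, 1 was added after seeing the data. The results of 1 pathway gene and 1 cluster are not reported here.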

Additional observations from a re-analysis of the deposited data

Results flagged for a closer look

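Smad6 differed between WT PNX and sham in opposite directions in 2 named classes. The ratio of WT PNX over sham was 1.24 in venous-like cells (489.9 CPM in WT PNX, 395 in sham, interval 1.08 to 1.42) and 0.662 in arterial-like cells (1112 CPM in WT PNX, 1678 in sham, interval 0.596 to 0.737). Each interval covers counting error only, and the difference between the classes was not tested, because each class and group is 1 library. The arterial-like class held 186 cells in WT PNX and 153 in sham, and the venous-like class 334 in WT PNX and 315 in sham.

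Bmp4 between Foxo1cKO PNX and WT PNX went opposite ways by sex transcript. The ratio was 0.757 in Xist-transcript cells (183 CPM in Foxo1cKO PNX, 242 in WT PNX, interval 0.663 to 0.864) and 1.62 in Y-transcript cells (251 CPM in Foxo1cKO PNX, 155 in WT PNX). Cells with both kinds of transcript, 365 in Foxo1cKO PNX and 237 in WT PNX, are in neither set, so the sets need not be pure by sex. The difference was not tested, and the number of animals behind each set of cells is not given.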

How the results depend on the processing

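Of 420 member ratios under 14 alternatives, 303 stayed within their counting interval and 117 moved beyond it. Of 112 ratios called as reported, 96 stayed called in the same direction and 0 changed sign. The other 308 were not called as reported, and some of them are Inhba ratios with less than 10 CPM in both libraries. Of these 308, 16 changed sign, and 1 of the 16 was then called. It was Inhbb with at most 5% mitochondrial UMIs, at 12.4 CPM in Foxo1cKO PNX against 6.45 in WT PNX (log2 0.61, against -0.20 as reported). With at most 5% mitochondrial UMIs, 5 members passed in M3cKO PNX against WT PNX (3 as reported) and 2 in Foxo1cKO PNX against WT PNX (1 as reported). Thinning cells to 2000 UMIs left out the shallower cells. With it, 2 passed in WT PNX against sham (4 as reported) and 0 in Foxo1cKO PNX against WT PNX. Without the richest cell of each member, 0 passed in Foxo1cKO PNX against WT PNX. In general capillary-like cells alone, and in Y-transcript cells alone, 2 passed in WT PNX against sham. The cause was not tested in these, except that the richest cell carries the Inhba ratio. In log2 units with 5 CPM added, Bmp4 in WT PNX over sham ran from 0.35 to 1.04, Inhbb in M3cKO PNX over WT PNX from 1.76 to 2.08, Bmp4 there from -1.83 to -1.19 and Bmpr2 there from -0.90 to -0.58. The last 3, and Eng in WT PNX against sham, stayed past the fold in 14 of 14. The alternative without clusters led by other cells' genes was added after seeing the data. No paired analysis was possible because each group is 1 library. Depth limits Inhba (5 to 168 UMIs) and class values of few UMIs.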

Other observations

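In the 2 libraries that hold Xist and Y-linked transcripts, some members differed between Xist-transcript cells (no Y-linked UMI) and Y-transcript cells (no Xist UMI). Another 365 endothelial cells of Foxo1cKO PNX and 237 of WT PNX had both kinds of transcript. They are in neither set, and they show that the sets need not be pure by sex. In WT PNX (734 and 1167 such cells) the ratio of Xist cells over Y cells was 1.56 for Bmp4 (242 and 155 CPM, interval 1.41 to 1.74), 1.41 for Bmp6 (521 and 369 CPM), 1.37 for Bmpr2 (1307 and 954 CPM) and 1.35 for Smad6 (774 and 575 CPM). In Foxo1cKO PNX (599 and 1107 cells) it was 0.731 for Bmp4 (183 CPM and, in Y cells, 251, interval 0.648 to 0.824), 1.01 for Bmp6, 1.23 for Bmpr2 and 1.23 for Smad6. A sex transcript is found more readily in deeper cells, and the median depth was 2518 UMIs in Xist cells and 3673 in Y cells of WT PNX, against 2745 in Xist cells and 2852 in Y cells of Foxo1cKO PNX. The part of depth and of the animals behind each set of cells was not tested.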
